A study of Mus musculus with 2 samples.

Results

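The genes of the mitochondrial respiratory chain and ATP synthase were examined in single-cell RNA libraries of mouse retina. Members were the gene symbols that begin with Nduf, Uqcr, Cox4 to Cox8 or Atp5, the genes Sdha, Sdhb, Sdhc and Sdhd, and the symbols that begin with mt-Nd, mt-Co, mt-Cytb or mt-Atp. This gave 106 of 31053 genes. Of these, 93 are encoded in the nucleus and 13 in the mitochondrial genome. Both libraries came from C57BL/6 mice aged 6 to 8 weeks, 2 weeks after optic nerve injury. One group was given PBS, the buffer control, and the other MSC-sEV, a name that the labels do not spell out. Each library was 1 pool of the retinas of 6 mice, dissociated with papain and DNase I and passed over CD45 beads, which bind leukocytes. No uninjured or untreated retina was analysed here, and the labels give neither dose nor route.

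The respiratory chain passes electrons from NADH and succinate to oxygen and pumps protons across the inner mitochondrial membrane, and ATP synthase uses the returning protons to make ATP. Complex I takes electrons from NADH, complex II from succinate, complex III passes them to cytochrome c, complex IV hands them to oxygen, and complex V is ATP synthase. Complexes I, III, IV and V are mosaics of subunits from both genomes, whereas complex II is wholly nuclear. Photoreceptors hold densely packed mitochondria in their inner segments and are among the most energy-demanding cells known. Microglia are the resident macrophages of the retina, and Müller cells are its main glia.

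Among the nuclear members, 36 were subunits of complex I, 4 of complex II, 8 of complex III, 19 of complex IV and 16 of complex V, and 10 were assembly factors or other associated genes. The mitochondrial members were 7 subunits of complex I, 1 of complex III, 3 of complex IV and 2 of complex V. They were all of the mitochondrial genes in the deposited tables. A limit on the mitochondrial share of a cell is therefore a limit on the members themselves, so values are given without such a limit first. In the PBS library 103 members had a UMI (a tag that marks 1 captured RNA molecule) and in the MSC-sEV library 104. Cox8c and the second of the 2 gene identifiers named Atp5o were at 0 in both, and Cox7b2 was at 0 in PBS. On the mitochondrial genome mt-Atp8 and mt-Atp6 overlap by 43 bases and mt-Nd4l and mt-Nd4 by 7, so reads in the overlaps cannot be assigned to 1 gene.

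Deposited barcodes numbered 1676 in PBS and 2593 in MSC-sEV, with 8439740 and 16987131 UMIs. After the filters 1534 and 2497 barcodes remained, with a median of 2321.5 and 2774 UMIs, and the libraries shared 0 barcodes. The label names retinal immune cells, but 754 PBS and 1199 MSC-sEV barcodes were rod-like by their markers. Microglia-like cells numbered 162 and 445, Müller glia-like 129 and 79, cone-like 135 and 107, bipolar cell-like 49 and 43, and endothelial cell-like 26 and 17. Monocyte or macrophage-like (211), dendritic cell-like (50), T or innate lymphoid cell-like (71) and neutrophil or eosinophil-like cells (138) were in the MSC-sEV library only. A shallow cluster of 279 and 137 barcodes stayed unnamed. With 1 library per group there is no test between the treatments: the intervals given are 95% intervals for counting error and say nothing of the spread between mice, and the effect of treatment and the difference between the 2 pools cannot be told apart.

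Microglia-like cells fell into 2 clusters that must be told apart before any member is read. Cluster 9 (39 PBS and 201 MSC-sEV cells) had all 14 microglia markers above the other cells. Its rod marker genes, such as Gnat1 and Sag, took 0.605% and 0.347% of all UMIs, and its microglia markers 4.4% and 2.93%. In cluster 6 (123 and 244 cells) rod markers took 10.2% of the PBS and 1.28% of the MSC-sEV UMIs, against 0.831% and 2.05% for microglia markers. In PBS, 9 barcodes of cluster 6 with over 30000 UMIs held 60.1% of its UMIs, and each had 10.4% to 14% rod marker UMIs. The PBS cells of cluster 6 thus go against the name by their markers, so microglia are described by cluster 9 and the class as a whole is given beside it. This does not hold for the MSC-sEV cells of cluster 6, which had more microglia than rod marker UMIs. Values of cluster 9 therefore do not stand for all microglia-like cells of MSC-sEV.

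Promoter sequences of the nuclear members were searched for short motifs, each of which was found in a minority of them. In the 250 bases before the gene start in RefSeq (GRCm38.p6), 76 of the 92 nuclear symbols had an entry. The motif TGCGCA, the palindromic core of the NRF1 site, was present in 15 of these 76 (19.7%), against 7.36% of all 27025 genes with a window of the same length. The ETS-type motif CCGGAAG, searched on both strands and also met as CTTCCGG, was in 14 (18.4%) against 7.83%. The YY1-type motif AAGATGG, on both strands, was in 1 (1.32%), Atp5j, against 5.18%. Ndufb6, Cox6a1, Atp5l and Sdhd held both of the first 2 motifs. A match describes letters and not a bound site. The windows of 4 members that recur below are shown: Cox6a1, the common isoform of a complex IV subunit, and Ndufs6, an accessory subunit of complex I, hold TGCGCA, while Ndufa4 and Ndufaf5, the members with the largest rod to microglia ratios, hold none of the motifs. Each is written 5′ to 3′ toward the gene, without bases inside the GENCODE gene, and capitals mark TGCGCA. The CTTCCGG of Cox6a1 lies in the 23 bases left out for that reason.
Cox6a1, chr5:115348982-115349208, minus strand: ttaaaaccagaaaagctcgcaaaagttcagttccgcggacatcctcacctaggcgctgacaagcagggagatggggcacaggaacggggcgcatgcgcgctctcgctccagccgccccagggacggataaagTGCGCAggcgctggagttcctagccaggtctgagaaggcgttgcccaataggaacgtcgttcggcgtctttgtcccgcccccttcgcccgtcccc
Ndufs6, chr13:73328543-73328732, minus strand: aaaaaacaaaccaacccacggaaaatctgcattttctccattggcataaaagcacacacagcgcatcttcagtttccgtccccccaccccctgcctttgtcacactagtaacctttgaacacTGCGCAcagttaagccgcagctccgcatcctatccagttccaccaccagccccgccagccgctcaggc
Ndufa4, chr6:11907498-11907700, minus strand: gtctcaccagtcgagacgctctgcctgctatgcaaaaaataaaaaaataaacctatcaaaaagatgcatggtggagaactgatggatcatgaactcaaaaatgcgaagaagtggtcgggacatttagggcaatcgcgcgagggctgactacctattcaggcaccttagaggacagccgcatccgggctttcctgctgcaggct
Ndufaf5, chr2:140170396-140170645, plus strand: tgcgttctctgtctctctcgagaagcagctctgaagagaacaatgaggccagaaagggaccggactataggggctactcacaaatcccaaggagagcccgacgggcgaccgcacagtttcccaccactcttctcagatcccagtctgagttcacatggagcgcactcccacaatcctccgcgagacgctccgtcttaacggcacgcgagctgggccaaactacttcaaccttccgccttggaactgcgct

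Cell classes differed in how much of their RNA came from respiratory genes. Levels of nuclear members are given in CPM, here UMIs per 1000000 UMIs of nuclear genes, and mitochondrial members as a percentage of all UMIs. In PBS the summed nuclear level was 32523 CPM (95% interval 32302 to 32745) in rod-like cells, 39114 in cone-like, 32410 in bipolar cell-like, 32182 in Müller glia-like, 23894 in endothelial cell-like and 13975 (13643 to 14313) in cluster 9 microglia. In MSC-sEV these levels were 23305, 29760, 27388, 25072, 17677 and 18856 (18704 to 19008). Cones thus had the highest nuclear level of these classes in both libraries, with rods taken as 1 class, and in PBS cluster 9 had the lowest. In MSC-sEV rod clusters 4 and 7, at 32755 and 31227, lay above cones. The leukocytes of the MSC-sEV library lay at 21633 (monocyte or macrophage-like), 21246 (T or innate lymphoid cell-like), 18776 (dendritic cell-like) and 13197 (neutrophil or eosinophil-like). The first 2 of these classes lay above its cluster 9 microglia, the dendritic cell-like cells near them and the granulocytes below. The MSC-sEV cells of cluster 6 lay higher than cluster 9. Within a limit of 15% mitochondrial UMIs they held 24590 CPM, against 18857 in cluster 9 and 23302 in rod-like cells of that library.

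Mitochondrial members did not follow the same order. In PBS they took 8.30% of all UMIs in bipolar cell-like cells, 6.06% in Müller glia-like, 5.76% in cone-like, 5.48% in rod-like, 4.54% in endothelial cell-like and 2.45% in cluster 9 cells. In MSC-sEV the shares were 4.63%, 4.28%, 7.55%, 4.15%, 4.58% and 3.80%. Monocyte or macrophage-like cells were at 2.46% and dendritic cell-like cells at 1.85%, the lowest of all classes. Expressed as mitochondrial per nuclear member UMI, dendritic cell-like cells had 1.01, monocyte or macrophage-like cells 1.17, rods 1.78 in PBS and 1.86 in MSC-sEV, cones 1.56 and 2.74, and neutrophil or eosinophil-like cells 3.10. The unnamed shallow cluster had 3.99 and 4.76.

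**Figure D1:**
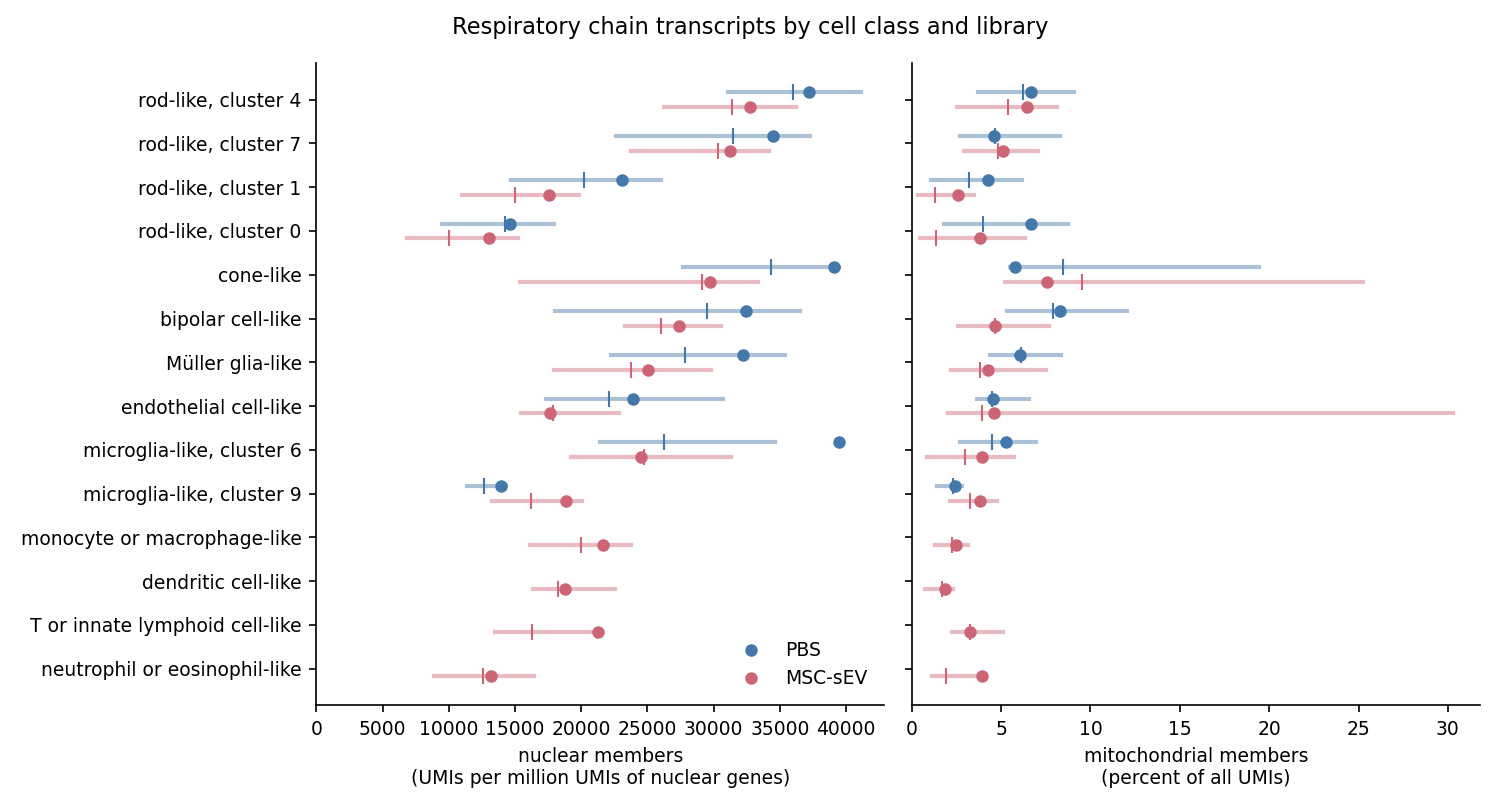
Summed level of the nuclear members (CPM of nuclear genes) and of the mitochondrial members (percent of all UMIs) by class or cluster and library; dots are pooled levels, ticks are medians over cells and bars are quartiles over cells. Cluster 9 microglia lie lowest in PBS on both scales, and on the nuclear scale the rod-marked PBS cells of cluster 6 and the PBS cones lie highest.

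Between rod cluster 4 and cluster 9 microglia the contrast was seen in nearly every nuclear member. Cluster 4 (391 PBS and 390 MSC-sEV cells) was set against cluster 9 within each library, and rod to microglia ratios below are of these clusters. It had 13 rod markers above the other cells, whereas the smaller cluster 7 (98 and 51 cells) had 14. Of the rod clusters, cluster 4 also had the highest nuclear member level in both libraries. In PBS all 80 measured nuclear members were higher in cluster 4, where a member counts as measured with at least 50 UMIs over the groups compared. Of these, 72 were at least 1.5-fold higher, against a background of 45.7% of all measured genes, and 0 were lower by as much (background 26.8%), and the median log2 ratio was 1.39 (1.28 to 1.62, from the ranked members) against 0.44 over all genes. In MSC-sEV 74 of 83 were higher in cluster 4, 48 by at least 1.5-fold (background 31.5%) and 4 were lower by as much (background 40.1%), namely Cox6a2, Sdhb, Sdhd and Ndufaf7. The median was 0.73, against -0.13 over all genes. The excess of cluster 4 was thus present in both libraries and smaller in MSC-sEV, where cluster 4 was lower and cluster 9 higher than in PBS. Not all rod clusters shared it in MSC-sEV. Within the limit of 15% mitochondrial UMIs, clusters 0 and 1 (254 and 470 of 1145 rods) held 12863 and 17563 CPM there. Both lay below the 18857 of cluster 9, whereas cluster 7 held 31317. In PBS clusters 0, 1 and 7 held 14578, 23154 and 34620, against 13975 in cluster 9.

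Ndufa4, a small subunit first assigned to complex I and now to complex IV, had the second largest rod to microglia ratio of the measured nuclear members in both libraries. Its level was 2257 CPM in cluster 4 and 266 in cluster 9 in PBS, a ratio of 8.50 (7.11 to 10.2), and 2102 and 322 in MSC-sEV, a ratio of 6.52 (6.04 to 7.05). It was 192 in monocyte or macrophage-like, 180 in dendritic cell-like, 340 in T or innate lymphoid cell-like and 320 in neutrophil or eosinophil-like cells, so each of these leukocyte classes lay far below photoreceptors. In the MSC-sEV cells of cluster 6 Ndufa4 was 469 CPM in barcodes over 30000 UMIs and 590 in the others, above cluster 9.

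Ndufaf5, an assembly factor that modifies a complex I core subunit, had the largest rod to microglia ratio of the measured nuclear members in both libraries. In MSC-sEV it was 18.5-fold (12.9 to 27.4) higher in cluster 4 than in cluster 9. In PBS cluster 4 had 200.5 CPM and cluster 9 had 1 UMI, or 2.08 CPM, a ratio of 96.7 with a counting interval from 17.2 to 3835. Cones held 222 and 205 CPM, Müller glia-like cells 93.6 and 89.9, and monocyte or macrophage-like cells 8.70. A different behaviour was shown by Cox7a2l, a factor that joins complexes III and IV into supercomplexes and exists in a shorter form in C57BL/6 mice. Its rod to microglia ratio was 1.01 (0.863 to 1.18) in PBS and 1.18 in MSC-sEV.

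Some isoforms of complex IV subunits were found mainly in 1 class. Cox4i2, the oxygen-sensitive isoform of Cox4i1 known from lung, was found in Müller glia-like cells at 515 CPM in PBS and 583 in MSC-sEV, with a UMI in 78.3% and 72.2% of cells. In cluster 4 it was 30.9-fold (19.4 to 52.5) lower in PBS and 171-fold (58.3 to 832) lower in MSC-sEV, where rods had 3 UMIs. Cluster 9, which should lack it, had a UMI in 0 of 39 PBS and in 5.97% of MSC-sEV cells, and at a greater median depth than Müller glia-like cells (9901 and 14872 against 6726 and 4899 UMIs). Cox6b2, known as the testis isoform, followed the same pattern: 75.6 and 89.9 CPM in Müller glia-like cells, with a UMI in 40.3% and 43.0%, and 10.2-fold (5.01 to 24.3) less in cluster 4 in PBS.

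Cox6a2, the heart and skeletal muscle isoform of a complex IV subunit, was found in microglia. Cluster 9 held 14 PBS and 134 MSC-sEV UMIs of it, or 29.0 and 42.7 CPM, in 12.8% and 16.4% of cells. Rod-like cells had 0 and 2 UMIs and Müller glia-like cells 0 and 1, while monocyte or macrophage-like cells had 19 UMIs (5.16 CPM, 8.06% of cells). Its common counterpart Cox6a1 was at 195 and 324 CPM in cluster 9. Ndufa4l2, a hypoxia-responsive relative of Ndufa4 known from pericytes, reached 102 CPM (18 UMIs) in the 26 endothelial cell-like cells of PBS and 7.97 (1 UMI) in the 17 of MSC-sEV. The pericyte marker list took 0.110% and 0.0571% of UMIs in those cells, and its part in the result was not tested.

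**Figure D2:**
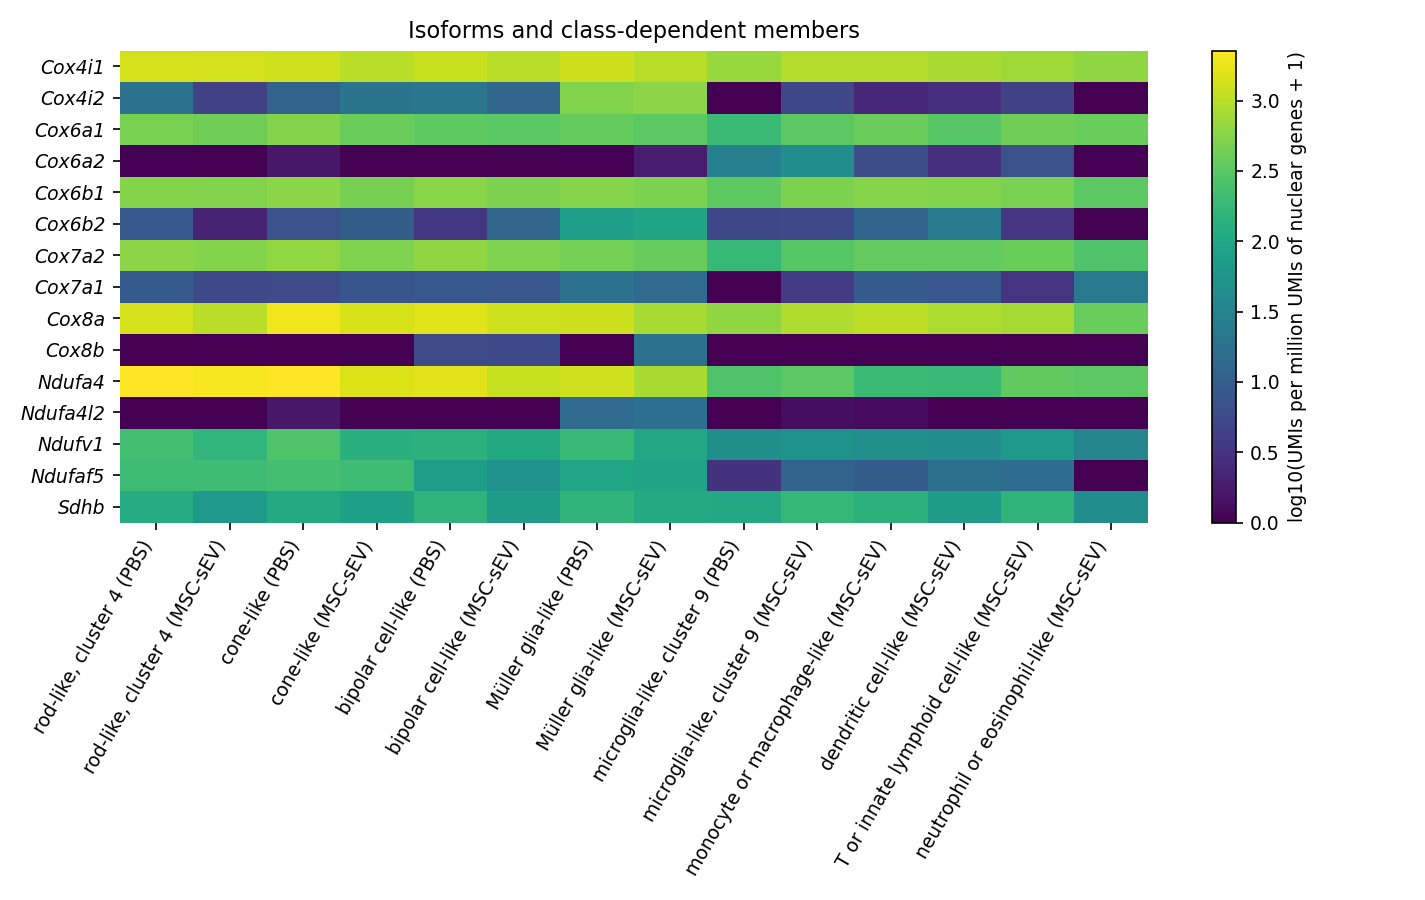
Level of isoform pairs of complex IV, Ndufa4 and Ndufa4l2, and selected members of complexes I and II, as log10 of CPM plus 1, by class or cluster and library. Cox4i2 and Cox6b2 are high in Müller glia-like cells, Cox6a2 in cluster 9 microglia, and Ndufa4 and Ndufaf5 are low in cluster 9 and in the other leukocyte classes.

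The limit of 15% mitochondrial UMIs removed cells of some classes far more than others. In PBS 189 of 1534 barcodes (12.3%) lay above it and in MSC-sEV 177 of 2497 (7.09%). Cone-like cells lost the largest share of the photoreceptors and glia, 46 of 135 (34.1%) and 42 of 107 (39.3%). Rod-like cells lost 57 (7.56%) and 54 (4.50%), Müller glia-like cells 13 (10.1%) and 7 (8.86%), microglia-like cells 5 (3.09%) and 17 (3.82%). The unnamed cluster lost 58 (20.8%) and 38 (27.7%). Of 211 monocyte or macrophage-like cells 0 lay above the limit, for which the exact upper bound (Clopper-Pearson) is 1.73%.

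Cones and rods above the limit were shallower than those within it. Cones above it had a median of 1113.5 UMIs in PBS and 1806.5 in MSC-sEV, against 10815 and 11779 within it, and rods had 982 and 929.5 against 2602 and 2546. The unnamed cluster, shallow throughout, was no shallower above the limit, with 766.5 and 916.5 against 685 and 792. In rod cluster 0 the medians were 880 and 769 above it and 907 and 1221 within it. The nuclear members moved little with the limit: cones stood at 39114 CPM without it and 39341 with it in PBS, and at 29760 and 30475 in MSC-sEV. The mitochondrial share of cones went from 5.76% to 4.76% in PBS and from 7.55% to 5.41% in MSC-sEV. Cones above the limit still held 32967 and 20756 CPM of nuclear members, at 26.5% and 28.0% mitochondrial UMIs, so both kinds of member were present in them. The cone values rest on how the class was drawn. In a finer clustering (resolution 2.0) cone-like barcodes formed a deep and a shallow cluster. The deep one held 68 and 50 barcodes, with medians of 12512 UMIs and 6.10% mitochondrial UMIs, and the shallow one 36 and 35, with 1640 and 19.9%. With members among the clustering genes only 33 and 35 barcodes were cone-like, and a cluster of 78 and 56 led by cone genes stayed unnamed.

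**Figure D3:**
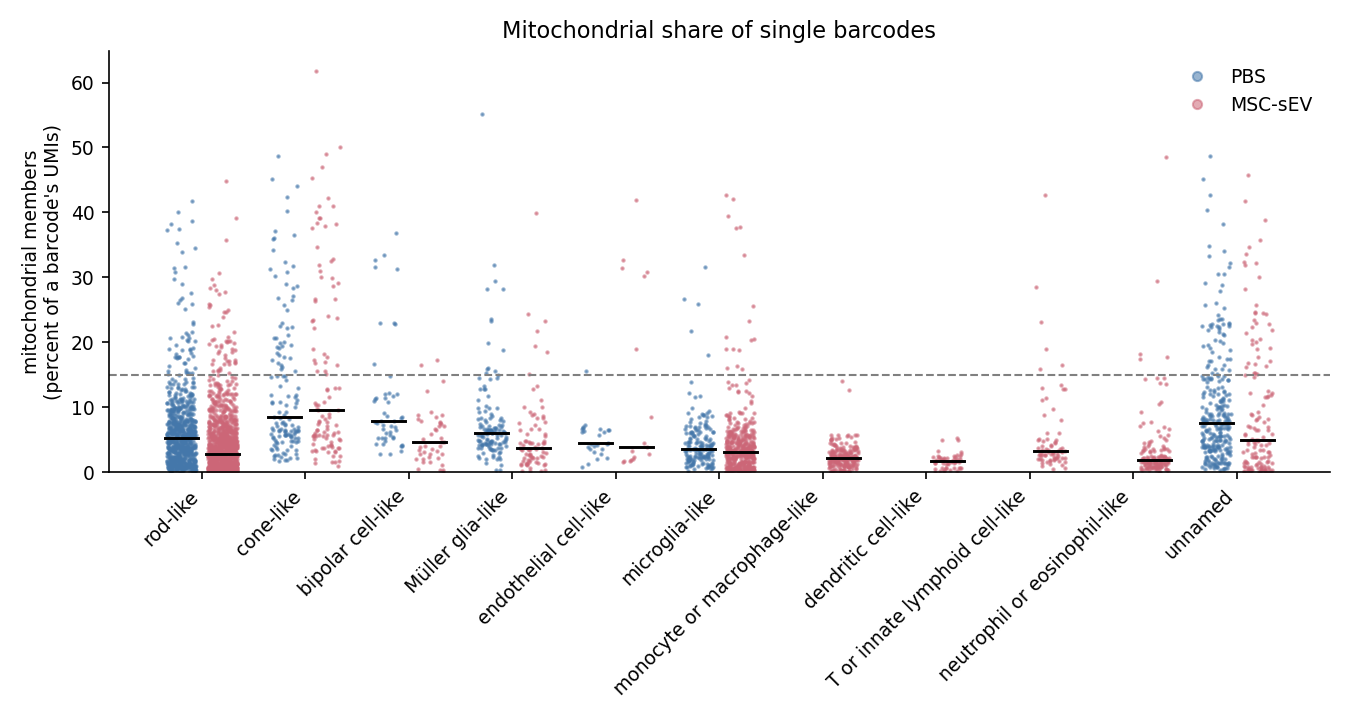
Percent of a barcode's UMIs from the 13 mitochondrial members, by class or cluster and library; points are barcodes, black lines are medians and the dashed line is the 15% limit. The cone medians are 8.46% in PBS and 9.53% in MSC-sEV, and 34.1% and 39.3% of cones lie above the limit.

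Rod-like cells had lower levels of nuclear members in MSC-sEV than in PBS when taken as 1 class. Of 85 measured nuclear members 83 were lower, 19 of them by at least 1.5-fold (background 5.79%), 0 were higher by as much (background 27.5%), and the median log2 ratio was -0.47 (-0.52 to -0.42) against 0.23 over all genes. The 2 that were higher were the assembly factors Ndufaf4 and Ndufaf6, and all 75 measured subunits were lower. Cox8a, a small membrane subunit of complex IV, was 1172 and 682 CPM, and Atp5c1, the central stalk of ATP synthase, 460 and 266. Sdha, the flavoprotein of complex II, was 209.7 and 209.6. All 13 mitochondrial members were lower as well, with a summed ratio of 0.757. Other groups differed in the same class: all 80 measured cytosolic ribosomal protein genes were lower, with a median log2 ratio of -0.42, and the nucleus-retained RNAs summed to 27165 CPM in PBS and 44810 in MSC-sEV. Of the 3 measured RNAs of that list 2 were higher and 1 lower, each by at least 1.5-fold. In cluster 4 the list summed to 7740 and 4043 CPM, the other direction. The part of these groups in the result was not tested.

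For the nuclear members the difference was smaller within the clusters that made up the class, and for the mitochondrial members it was larger in 2 of them. Rods fell into 4 clusters with nuclear levels from 14631 (cluster 0) and 23064 (cluster 1) to 37160 (cluster 4) and 34488 (cluster 7) in PBS. Clusters 0 and 1 held 94 and 171 of the 754 PBS rods, but 283 and 475 of the 1199 MSC-sEV rods. Within clusters the median log2 ratio of the nuclear members was -0.16, -0.38, -0.20 (-0.26 to -0.14) and -0.18 in clusters 0, 1, 4 and 7. The summed mitochondrial members had log2 ratios of -0.80, -0.72, -0.05 and 0.15, so the mitochondrial direction was not shared by the 4 clusters. Rods of clusters 0 and 1 had median depths of 907 and 2700 UMIs in PBS. Fewer cells of a high-expressing kind and less RNA per cell are therefore told apart here only as far as the clusters do so.

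In cluster 4 the 2 libraries were close. The summed nuclear level was 37160 and 32755 CPM, a ratio of 0.881 (0.868 to 0.895), and the mitochondrial share 6.65% and 6.44%, a ratio of 0.968 (0.958 to 0.979). Within the 15% limit the mitochondrial share was 6.02% and 6.01%, and 5 of 13 mitochondrial members were higher in MSC-sEV. Of 80 measured nuclear members 70 were lower in MSC-sEV, 5 by at least 1.5-fold (background 8.53%), and 0 were higher by as much (background 14.6%). The 5 were Sdhd, Sdhb, Ndufaf2, Ndufs3 and Atp5d, a share below that of all genes. By complex the medians were -0.25 for complex I, -0.47 for II, -0.07 for III, -0.16 for IV and -0.15 for V. Cox4i1, the regulatory subunit of complex IV, was 1365 and 1349, and Uqcrh, the hinge protein of complex III, 1043 and 1138.

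Complex II had the members furthest apart in cluster 4. Sdhb, its iron-sulfur subunit, was 118 CPM in PBS and 64.7 in MSC-sEV, a ratio of 0.547 (0.393 to 0.753). Sdhd, a membrane anchor, was 67.5 and 35.2, a ratio of 0.522 (0.331 to 0.805). The other 2 subunits did not share this: Sdhc, the partner anchor, was 119 and 114, and Sdha 211 and 242, a ratio of 1.15 (0.948 to 1.39). All 4 assemble in equal numbers in the complex. Other members lower in MSC-sEV were Ndufs3 of the complex I core, 201 and 128, and Atp5d, the delta subunit of ATP synthase, 324 and 211.

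Microglia of cluster 9 differed in the opposite direction. Their nuclear members summed to 13975 CPM in PBS and 18856 in MSC-sEV, a ratio of 1.35 (1.32 to 1.38), and the medians over cells were 12697 and 16211. Of 81 measured nuclear members 72 were higher in MSC-sEV, 26 by at least 1.5-fold (32.1%, background 21.4%), and 0 were lower by as much (background 13.2%). The median log2 ratio was 0.47 (0.39 to 0.52), against 0.06 over all genes. The mitochondrial share was 2.45% and 3.80%, a ratio of 1.55 (1.52 to 1.58), and 12 of 13 mitochondrial members were higher.

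Both genomes and all 5 complexes took part. The ratio of the summed nuclear subunits was 1.29 for complex I, 1.63 (1.37 to 1.95) for II, 1.31 for III, 1.41 for IV and 1.44 for V. For the mitochondrial subunits it was 1.40 for complex I, 1.28 for III, 1.77 (1.72 to 1.82) for IV and 1.49 for V. All measured nuclear members of complexes II, III, IV and V (4, 8, 12 and 15) were higher in MSC-sEV, and 31 of 36 of complex I. Of the 6 measured assembly and associated genes only 2 were higher.

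Among complex I members of cluster 9, Ndufs6 was 56.0 CPM in PBS (27 UMIs) and 135 in MSC-sEV (425 UMIs), a ratio of 2.42 (1.64 to 3.71). Ndufb8, a membrane-arm subunit, had a ratio of 1.90 (1.46 to 2.52). Ndufa5, a matrix-arm subunit, went the other way, 122 and 89.9 CPM, a ratio of 0.734 (0.553 to 0.989). The excess over PBS was therefore not shared by every subunit of the complex.

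In complex II of cluster 9, Sdha was 95.4 and 134 CPM (ratio 1.40, 1.03 to 1.94), and Sdhb was 106 and 169 (1.60, 1.20 to 2.18). Sdhc was 37.3 and 86.7 (2.32, 1.44 to 3.97), and Sdhd was 56.0 and 89.5 (1.60, 1.08 to 2.47). All 4 intervals lay above 1, whereas in cluster 4 Sdhb and Sdhd lay below it. As a result Sdhb was near equal in rods and microglia of PBS (rod to microglia ratio 1.12, 0.802 to 1.58) and 2.61-fold (1.99 to 3.50) higher in microglia in MSC-sEV. For Sdhd the rod to microglia ratio was 1.20 in PBS, and in MSC-sEV microglia were 2.54-fold (1.75 to 3.81) higher. Sdha and Sdhc were not lower in rods by as much.

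In complexes III to V of cluster 9, Uqcr11, a small complex III subunit, was 164 and 295 CPM (1.80, 1.43 to 2.29). Uqcrh was 510 and 579 (1.13, 0.992 to 1.30), an interval that includes 1. Cox7b of complex IV had a ratio of 1.86 (1.45 to 2.43), Cox6a1 1.66 (1.34 to 2.07), Cox8a 1.40 and Cox4i1 1.38. Atp5g3, one of 3 genes for the same c subunit of ATP synthase, was 110 and 236 (2.14, 1.62 to 2.89), whereas its twin Atp5g2 was 473 and 614 (1.30). Cox7a2l was 494 and 356, lower in MSC-sEV by 1.39-fold (1.20 to 1.60).

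Among the mitochondrial members of cluster 9, mt-Co2, which receives electrons from cytochrome c, was 2925 CPM of all UMIs in PBS and 5900 in MSC-sEV, a ratio of 2.02 (1.91 to 2.13). mt-Nd3 had a ratio of 1.86 (1.64 to 2.11), mt-Co3 1.81, mt-Co1 1.55, mt-Atp6 1.498, mt-Nd2 1.41, mt-Nd4 1.40, mt-Nd1 1.38 and mt-Cytb 1.28 (1.22 to 1.35). mt-Nd5 was at 1.03 (0.898 to 1.19) and mt-Nd4l at 0.949 (0.747 to 1.22). mt-Nd6, the only member read from the other strand, rested on 10 PBS UMIs. Genes of 1 mitochondrial genome thus differed between libraries by unequal amounts, and the 3 complex IV genes were among the 4 with the highest ratios apart from mt-Nd6.

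Cells of cluster 9 differed between libraries in other ways, which were not separated from the members. Their median depth was 9901 and 14872 UMIs. Monocyte or macrophage markers took 0.159% and 0.469% of all UMIs and Müller markers 1.37% and 0.834%. The early-response gene Jun was at 3996 and 1783 CPM. Its list, of genes that respond to dissociation, was split. Of 8 measured genes 3 were lower (background 13.2%) and 2 higher (background 21.4%) in MSC-sEV by at least 1.5-fold. Their median log2 ratio was -0.14 (-1.35 to 1.17). The nucleus-retained RNAs, such as Neat1, summed to 23003 CPM in PBS and 15302 in MSC-sEV, with 1 of 3 measured higher and 2 lower. At resolution 2.0, a finer clustering, 38 of the 39 PBS cells formed a cluster with no MSC-sEV cell. Of the 201 MSC-sEV cells 135 stayed microglia-like there, 15 joined monocyte or macrophage-like cells and 51 formed an unnamed cluster led by granulocyte genes such as G0s2 and Retnlg. Without those 66 cells the MSC-sEV nuclear level was 19359 CPM and the mitochondrial share 3.85%, and the nuclear median log2 ratio was 0.48 (0.38 to 0.59). With 39 PBS cells from 1 pool, the part of these differences in the member ratios was not tested. In cells with at most 0.5% rod marker UMIs (31 and 172) the nuclear level was 13237 and 18261, as far apart as in all cells of the cluster.

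The microglia-like class taken whole gave the opposite sign. Of 85 measured nuclear members 77 were lower in MSC-sEV, 39 by at least 1.5-fold (background 22.8%), 1 was higher by as much (background 32.4%), and the median log2 ratio was -0.52 against 0.17 over all genes. This came with cluster 6, where 76 of 82 were lower, 44 by at least 1.5-fold (background 27.0%) and 0 higher by as much (background 39.1%), with a median of -0.62. Its 9 large PBS barcodes held 45490 CPM of nuclear members and 2688 of Ndufa4, above the 37160 and 2257 of the rod cluster itself. Without barcodes over 30000 UMIs the class median was -0.17, and in cells with at most 0.5% rod marker UMIs it was 0.55. The sign of the class thus differed between the sets of cells kept. The 0.5% limit kept 36 PBS and 323 MSC-sEV cells, of which 31 and 172 were of cluster 9. Rod marker content and cluster make-up changed together there, and their parts were not tested.

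**Figure D4:**
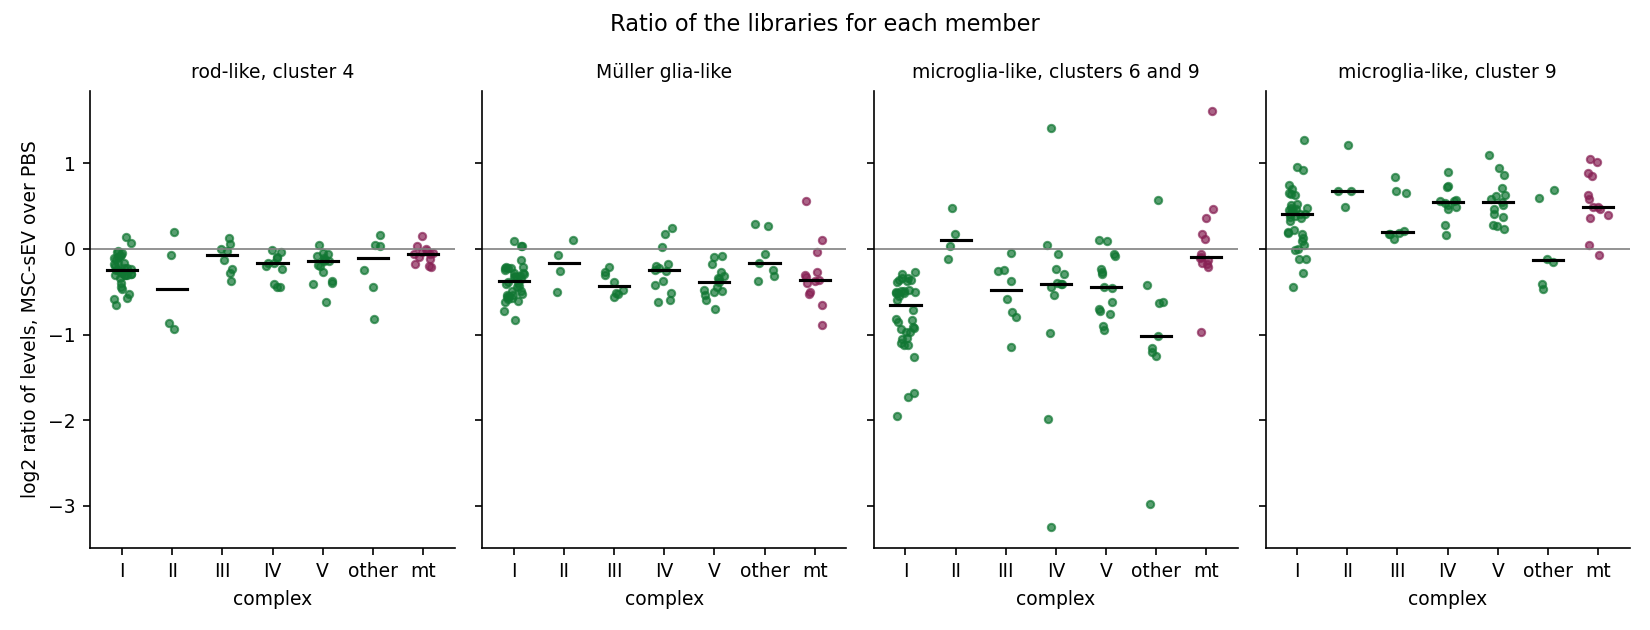
Log2 ratio of MSC-sEV over PBS for each measured member by complex and genome, in rod-like cluster 4, Müller glia-like cells, microglia-like clusters 6 and 9 together, and cluster 9; points are members, black lines are medians and "other" holds assembly and associated genes. Nuclear medians are -0.20 in cluster 4, -0.34 in Müller glia-like cells, -0.52 in both microglia-like clusters together and 0.47 in cluster 9.

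Müller glia-like cells had lower member levels in MSC-sEV. The summed nuclear level was 32182 and 25072 CPM, a ratio of 0.779 (0.768 to 0.791), and the mitochondrial share 6.06% and 4.28%, a ratio of 0.707 (0.700 to 0.715). Of 83 measured nuclear members 74 were lower, 8 by at least 1.5-fold (background 11.1%), 0 were higher by as much (background 22.5%), and the median log2 ratio was -0.34 (-0.39 to -0.28) against 0.09 over all genes. By complex the medians were -0.37 for I, -0.17 for II, -0.44 for III, -0.24 for IV and -0.38 for V. Ndufv1, the subunit that binds NADH, was 183 and 103 CPM (0.562, 0.449 to 0.701), Atp5b, the catalytic subunit of ATP synthase, 885 and 543, and Cox8a 1259 and 819. Cox4i2 and Cox6b2, the isoforms that mark the class, were not lower over the class as a whole (Cox4i2 ratio 1.13, 1.02 to 1.26, and Cox6b2 1.19, 0.899 to 1.57). When the cells were split by rod marker content, as below, Cox4i2 was slightly lower in MSC-sEV in both groups of cells.

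Rod RNA differed between the Müller glia-like cells of the 2 libraries as well. Rod markers took 4.89% of their UMIs in PBS and 3.27% in MSC-sEV. Only 29 PBS and 44 MSC-sEV cells had at most 0.5% rod marker UMIs. In these the nuclear level was 22693 and 21391, the mitochondrial share 5.81% and 5.02%, Ndufa4 451 and 408, and Cox4i2 856 and 834. The remaining 100 and 35 cells had 35459 and 28105 CPM, with Ndufa4 at 1580 and 1221 and Cox4i2 at 397 and 376. The mitochondrial share of those others was 6.14% and 3.67%. In the cells nearly free of rod markers the nuclear level was thus lower, that of Cox4i2 higher, and the libraries closer together (nuclear median log2 ratio -0.10), while the mitochondrial share was lower in PBS only.

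The makeup of the mitochondrial RNA itself varied by class and library. mt-Cytb, the only mitochondrial subunit of complex III (chromosome M, 14145 to 15288, plus strand), took 16.6% of mitochondrial UMIs in PBS rods and 16.2% in MSC-sEV rods. All 4 rod clusters lay from 16% to 16.9% in both libraries. In leukocytes it was lower: 13.7% (13.1 to 14.3) and 11.3% (11.1 to 11.5) in cluster 9, 8.96% in monocyte or macrophage-like, 8.73% in dendritic cell-like, 10.9% in T or innate lymphoid cell-like and 11.5% in neutrophil or eosinophil-like cells. mt-Co1, the catalytic subunit of complex IV, showed the reverse, with 10.8% and 10.5% in rods but 19.2% in monocyte or macrophage-like and 20.1% in dendritic cell-like cells. mt-Co2 took 12% and 12.6% in rods and 19.6% in neutrophil or eosinophil-like cells.

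Non-rod classes had a larger mt-Cytb share in PBS than in MSC-sEV. It was 19.3% and 14.7% in Müller glia-like cells, 17.7% and 15.2% in cones, 16.5% and 9.44% in endothelial cell-like cells and 21.5% and 12% in cluster 6. Bipolar cell-like cells were an exception, at 16.4% and 17.0%. In Müller glia-like cells mt-Cytb was 11688 and 6317 CPM of all UMIs, a ratio of 0.540 (0.526 to 0.555), and the lowest ratio of the 13. mt-Co3 was at 0.637, mt-Co1 at 0.697, mt-Nd1 at 0.703, mt-Nd4 at 0.760, mt-Nd2 at 0.771, mt-Nd4l at 0.778, mt-Co2 at 0.797, mt-Nd5 at 0.812, mt-Atp6 at 0.829, mt-Nd3 at 0.976 (0.907 to 1.05) and mt-Atp8 at 1.07 (0.852 to 1.35), and mt-Nd6 had 27 and 31 UMIs. In the Müller glia-like cells with at most 0.5% rod marker UMIs the mt-Cytb share was 14.4% and 13.8%, and in the others 20.9% and 15.8%. The PBS value in the others lay above the 16.6% of PBS rods, and in the 9 large barcodes of cluster 6 the share was 23.4%.

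**Figure D5:**
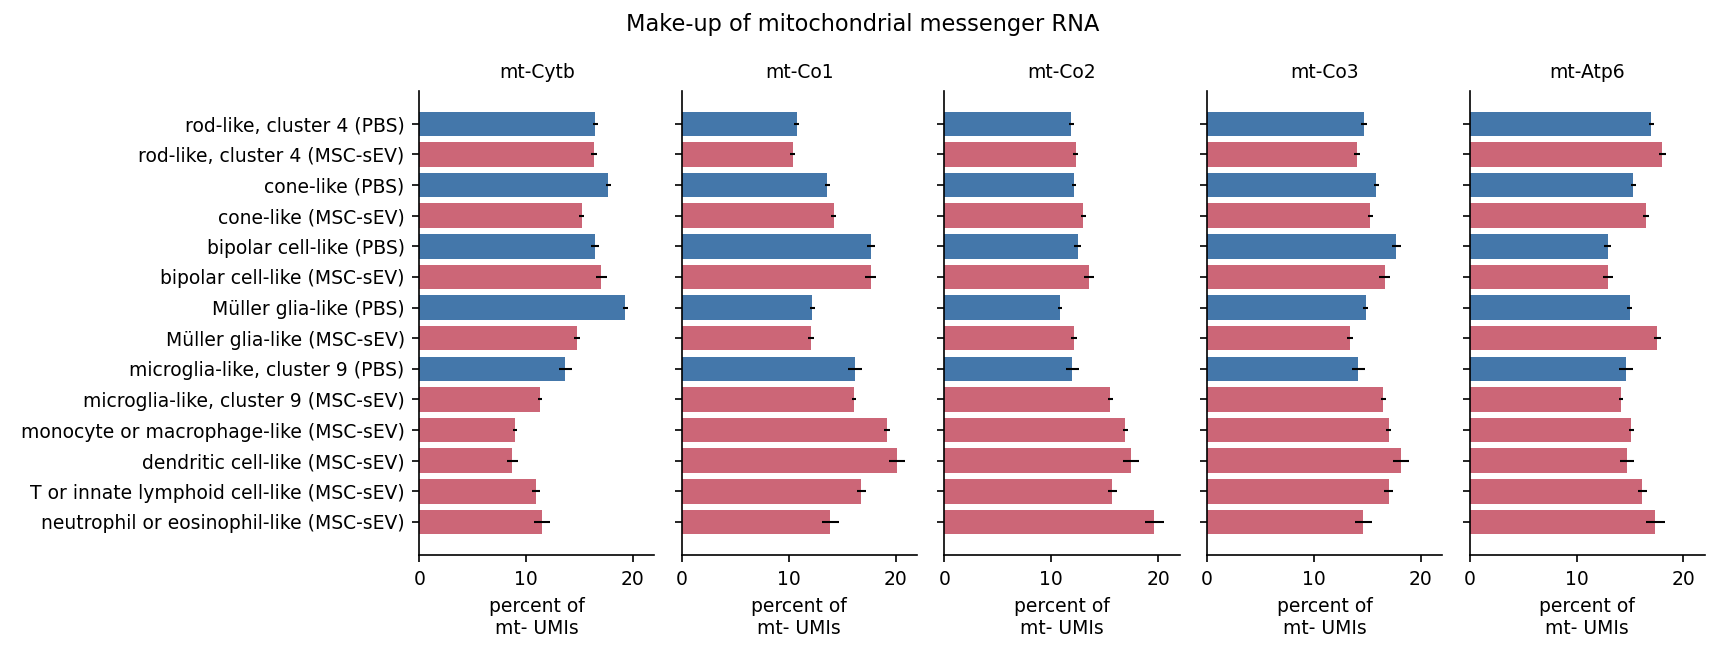
Percent of mitochondrial UMIs taken by mt-Cytb, mt-Co1, mt-Co2, mt-Co3 and mt-Atp6, by class or cluster and library, with exact 95% Clopper-Pearson intervals. The mt-Cytb share is near 16% in rods of both libraries, lower in leukocytes, and in Müller glia-like cells 19.3% in PBS against 14.7% in MSC-sEV.

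Related gene lists outside the member rule were set beside these results. Genes of electron carriers and adenylate exchange were lower in MSC-sEV in 15 of 15 measured in cluster 4 (median log2 ratio -0.36) and 18 of 19 in Müller glia-like cells (-0.31), but higher in 13 of 19 in cluster 9 (0.36). Citric acid cycle genes were lower in 10 of 15, lower in 10 of 16 and higher in 12 of 16, with medians of -0.24, -0.29 and 0.33. Mitochondrial ribosomal protein genes had medians of -0.18, -0.35 and 0.06. Cytosolic ribosomal protein genes, the other abundant housekeeping group, had medians of 0.00, -0.24 and 0.08. Over all measured genes 50.9%, 55.4% and 54.1% were higher in the same order. In cluster 9 the intervals from the ranked genes were -0.13 to 0.80 for the carriers and -0.0027 to 0.62 for the citric acid cycle, and both include the median of all genes.

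Single genes of these lists showed how far that went. Slc25a5, an exchanger of ADP and ATP, went from 276 CPM in PBS cluster 9 cells to 466 in those of MSC-sEV. Sco2, a copper chaperone for complex IV assembly, was 41.5 and 17.5, and assembly factors outside the rule were lower in 16 of 27 there. Ckmt1, the mitochondrial creatine kinase, was 300 and 141 in cluster 4 and 155 and 55.8 in Müller glia-like cells. Ppargc1a, a coactivator of mitochondrial gene expression, was higher in MSC-sEV in both, at 38.8 and 103 and at 15.3 and 60.2, beside respiratory members that were lower.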

How the data were processed

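Single-cell 3′ RNA libraries were made from 2 pools of retinas. The deposited tables hold raw UMI counts for each gene and barcode. Cell Ranger 3.0.2 and mm10 are named in the submitters' processing notes and, per the labels' protocols, the authors ran it with default settings. The annotation release and the treatment of reads shared with pseudogenes were not given in the sources used here. Coordinates of all 106 members came from GENCODE M21 (GRCm38).

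Barcodes with at least 500 UMIs and 300 genes were kept, with and without a limit of 15% mitochondrial UMIs. Scrublet (scanpy 1.11.5), at an expected rate of 2%, removed 2 and 3 barcodes (0.130% and 0.120%), so it gave next to no protection from doublets. Cells were clustered on 2000 variable genes (without members and without mitochondrial, ribosomal or sex-linked genes), with 20 neighbours in a space of 30 principal components, by the Leiden method at resolution 1.0, giving 16 clusters. Clusters were named from 19 marker lists when at least 3 markers were seen in at least 20% of cells and at least 2-fold above other cells. Rebuilt names may differ from those of the study.

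UMIs were summed per class and library. Nuclear members were scaled to 1000000 UMIs of nuclear genes (CPM) and mitochondrial members to all UMIs, since the share of 1 genome would otherwise move the other. No test was possible with 1 library per group. Intervals are exact Poisson, Clopper-Pearson or conditional binomial, at 95%, and cover counting error only. Ratios were taken for genes with at least 50 UMIs over both groups, and gene counts use a 1.5-fold difference. The calculation was tested on simulated Poisson counts with set fold changes. These held no spread between cells or pools, so they checked the calculation only. Levels of different genes are given side by side but not ranked, because 3′ counts depend on the transcript's end.

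Any member could be named. Full values were given to the mitochondrial members, the most abundant subunits, the extreme ratios, the Sdh genes and the isoform pairs. From other lists, the most abundant and most changed genes could be named. Some genes that met this rule are not reported here. The members, lists and classes were chosen with earlier results of these data known. Jun and the marker sums were singled out after their values were seen.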

Additional observations from a re-analysis of the deposited data

Results flagged for a closer look

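Member ratios between the libraries went in opposite directions in cluster 9 microglia and in Müller glia-like cells. In rod cluster 4 the nuclear members also went opposite to cluster 9, while the mitochondrial members hardly differed. None of these differences was tested. The median log2 ratio of the nuclear members (MSC-sEV over PBS) was 0.47 in cluster 9 and -0.34 in Müller glia-like cells, a difference of 0.81. Against rod cluster 4, with -0.20, the difference was 0.66. The summed mitochondrial members had log2 ratios of 0.64 in cluster 9, -0.50 in Müller glia-like cells and -0.05 in cluster 4, with differences of 1.13 and 0.68. Within the limit of 15% mitochondrial UMIs cluster 4 held 6.02% in PBS and 6.01% in MSC-sEV. Each class had 1 sum per library, so a direction rests on 1 pool against 1 pool.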

How the results depend on the processing

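Values are log2 ratios, and no test stands behind any of them. Settings by single clusters and without barcodes over 30000 UMIs were chosen after seeing the data.

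Rod-like, nuclear median (-0.47): -0.58 at resolution 2.0, -0.57 with members among the clustering genes and -0.70 with median-of-ratios scaling. Clusters 0, 1, 4 and 7 gave -0.16, -0.38, -0.20 and -0.18. Rod-like, mitochondrial sum (-0.40): -0.36 within 15% mitochondrial UMIs, -0.38 at resolution 2.0, -0.35 by marker score, -0.41 with members in the clustering, -0.42 per nuclear UMI and -0.60 with cells weighted equally. Clusters 0, 1 and 4 gave -0.80, -0.72 and -0.046, and cluster 7 turned to 0.15.

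Microglia-like, nuclear median (-0.52): -0.074 by marker score, -0.20 with cells weighted equally and -0.17 without barcodes over 30000 UMIs. It turned to 0.48 at resolution 2.0, 0.25 with members in the clustering, 0.55 in cells with at most 0.5% rod marker UMIs, 0.47 in cluster 9 and 0.48 in its cells that are microglia-like at resolution 2.0 as well. Microglia-like, mitochondrial sum (-0.17): -0.20 within 15%, -0.14 weighted equally, -0.41 in cluster 6 and -0.21 without the large barcodes. It turned to 0.51 at resolution 2.0, 0.075 by marker score, 0.42 with members in the clustering, 0.72 at 0.5% rod markers, 0.64 in cluster 9 and 0.66 in those cells of it.

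Müller glia-like, nuclear median (-0.34): -0.16 by marker score, -0.10 at 0.5% rod markers, -0.25 weighted equally and -0.43 with median-of-ratios scaling. Mitochondrial sum (-0.50): -0.59 at resolution 2.0, -0.60 by marker score, -0.21 at 0.5% rod markers, -0.53 per nuclear UMI and -0.42 weighted equally.

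Rod-like over microglia-like, PBS, nuclear sum (0.07): 0.28 weighted equally, 0.64 by marker score, 0.055 per all UMIs, 1.25 at 0.5% rod markers and 1.22 with cluster 9. PBS, mitochondrial sum (0.34): 0.21 within 15%, 0.31 with at least 1000 UMIs and 500 genes, 0.45 weighted equally, 0.54 by marker score, 0.35 per nuclear UMI, 1.24 at 0.5% rod markers and 1.16 with cluster 9. MSC-sEV, nuclear sum (0.18): 0.20 at 1000 UMIs, 0.28 by marker score, 0.21 at 0.5% rod markers, 0.31 with cluster 9, and it turned to -0.035 weighted equally. MSC-sEV, mitochondrial sum (0.11): 0.049 within 15%, 0.093 at 1000 UMIs, 0.13 with cluster 9, and it turned to -0.0085 weighted equally.

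Where rod marker UMIs were limited, the setting itself removed cells. The cause of a change was not tested for any setting. With 1 library per group, none was left out. The PBS microglia of cluster 9 were 39 cells, and their members with few UMIs, such as mt-Nd6 with 10, are limited by depth.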

Other observations

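Barcodes under the cell filter held more mitochondrial RNA. In PBS 140 such barcodes, with a median of 567 UMIs, had 29.0% (28.7 to 29.2) mitochondrial UMIs and nuclear members at 14370 CPM of nuclear UMIs. In MSC-sEV 93 such barcodes, with a median of 589 UMIs, had 24.1% and 5795. The analysed barcodes had 33098 and 22307 CPM.

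Nuclear and mitochondrial members had different ratios in the smaller classes. In cones the summed nuclear members had a ratio of MSC-sEV over PBS of 0.761 (0.750 to 0.771) and the mitochondrial members 1.31 (1.30 to 1.32). In bipolar cell-like cells the ratios were 0.845 and 0.558 (0.549 to 0.568), and in endothelial cell-like cells 0.740 and 1.01 (0.976 to 1.04). Within the 15% limit, which leaves out 6 of the 17 MSC-sEV endothelial cell-like cells, their mitochondrial ratio was 0.613 (0.589 to 0.638) and their nuclear ratio 0.730, and the mitochondrial ratio of cones was 1.14. Cox8b, the heart and skeletal muscle isoform of Cox8a, had 20 UMIs in 2 (2.53%) of the 79 Müller glia-like cells of MSC-sEV and 0 in PBS.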
